A study of Mus musculus with 3 samples.

Results

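The stretch of chromosome 9 that holds Fli1 and Ets1 carried 81 H3K27ac regions and 66 H3K4me1 regions in hematopoietic stem cells of aged mice. The 147 regions are all those in the deposited peak lists that overlap chromosome 9 from 32.2 to 32.62 Mb (mouse build mm9), out of 93413 H3K27ac and 155027 H3K4me1 regions genome-wide. Within the window they were taken by position alone, but the locus and its limits were chosen with earlier results of these data known. Approximate gene limits were 32.23 to 32.35 Mb for Fli1 and 32.44 to 32.57 Mb for Ets1. Regions were assigned by their summit to Fli1, to Ets1, to the interval between the genes or to 1 of the 2 ends of the window. Protein-coding neighbours in the RefSeq gene order are Kcnj1 on the Fli1 side and Kirrel3 beyond Ets1. No mm9 annotation was used, so exons, introns and transcription starts are not placed, and no sequence is printed.

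The libraries came from bone marrow hematopoietic stem cells of C57BL/6 mice aged 24 months, sorted as SP-KSL-CD150+ cells, where KSL is the usual gate for cells with c-Kit and Sca-1 and without lineage markers. H3K27ac and H3K4me1 were each measured by chromatin immunoprecipitation sequencing in 1 library, and both libraries are described as technical replicates of the same biological replicate, replicate 1. Input DNA from the same source, the third group, was not analysed here. All animals were old and of 1 strain. With a single library for each mark nothing below could be checked against replicates, and no test was made. The files hold no gene levels, so the sort was not checked against marker genes.

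Fli1 and Ets1 are neighbouring genes for transcription factors of the ETS family, which share a winged-helix domain that binds purine-rich DNA. In mice the genes are transcribed away from each other, so the Fli1 start is expected at the upper end of its interval, toward Ets1. Fli1 is needed for blood stem cells and megakaryocytes, the platelet-forming cells, and belongs to a set of factors, with Gata2, Tal1 and Runx1, that bind together at stem cell enhancers. Ets1 is best known in T, B and natural killer cells. H3K27ac is an acetylation of active promoters and enhancers, whereas H3K4me1 is a methylation of enhancers that can be present with or without acetylation and is usually low at the start of active genes.

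The locus was densely covered by both marks, and its acetylation was concentrated at Fli1. H3K27ac regions covered 49.6 kb (11.8%) of the window and H3K4me1 regions 159.2 kb (37.9%), against 2.24% and 6.94% of the autosomes. Coverage was thus 5.28 times the autosomal share for H3K27ac and 5.46 times for H3K4me1. Region numbers were 193 per Mb for H3K27ac and 157 per Mb for H3K4me1 in the window, against 37.4 and 61.5 per Mb over the 19 autosomes. On chromosome 9 as a whole they were 41.2 and 68.7 per Mb. Among 5876 other autosomal windows of 0.42 Mb, 84 (1.43%) had more acetylated length than the locus and 19 (0.323%) had more H3K4me1 length. The median window held 4.26 kb of H3K27ac and 16.7 kb of H3K4me1. This is a description of 1 pair of libraries, in which a region is the output of the peak caller and not a replicate.

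**Figure D1:**
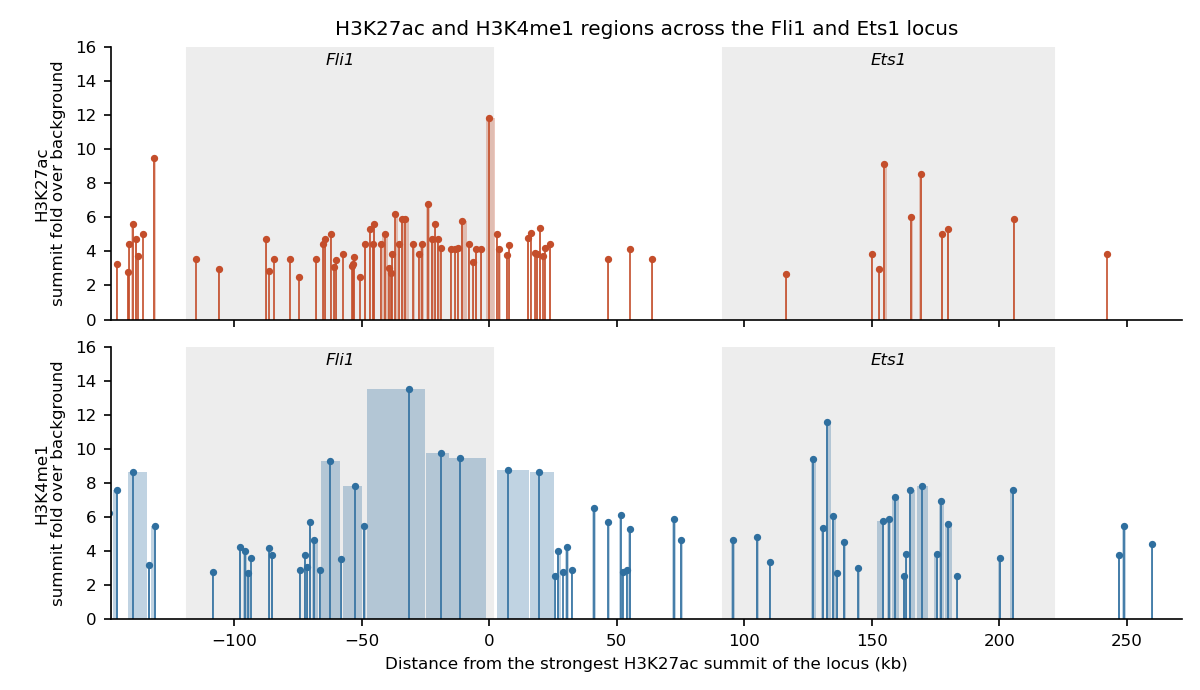
Regions of H3K27ac (top) and H3K4me1 (bottom) by distance in kb from the strongest H3K27ac summit of the locus, with the summit's fold over local background on the vertical axis. Points are summits, shaded bars the width of each region and grey bands the approximate limits of Fli1 and Ets1. H3K27ac forms a crowded field of mostly low summits over Fli1 under wide H3K4me1 regions, and 9 regions at Ets1.

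Fli1 held 48 of the 81 H3K27ac regions, and Ets1 held 9. The Fli1 interval had 40.0 H3K27ac regions per 100 kb and the Ets1 interval 6.92, a ratio of 5.78. H3K27ac covered 30.4 kb (25.3%) of the Fli1 interval and 6.99 kb (5.37%) of the Ets1 interval, 4.72 times as large a share at Fli1. The interval between the genes held 15 regions over 7.75 kb, the Kcnj1-side end 8 regions over 4.26 kb, and the far end beyond Ets1 1 region. Neighbouring H3K27ac regions were closer together at Fli1, with a median gap of 0.903 kb (quartiles 0.329 and 1.82 kb) against 5.02 kb at Ets1 (quartiles 2.07 and 13.0 kb).

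H3K4me1 did not share this difference in number. The Fli1 interval held 20 H3K4me1 regions and the Ets1 interval 23, with 16.7 and 17.7 per 100 kb. The median H3K4me1 region was shorter at Fli1 (900 bp) than at Ets1 (1457 bp). The upper quartile of width (3455.5 against 2191 bp) and the widest region (22753 against 4401 bp) were larger at Fli1. H3K4me1 covered 73.2 kb (61.0%) of the Fli1 interval and 36.7 kb (28.2%) of the Ets1 interval, a ratio of 2.16. The ratio of coverage between the genes was therefore larger for acetylation than for H3K4me1. Acetylation lay on 35.4% of the H3K4me1-marked length at Fli1, on 14.7% at Ets1 and on 18.6% between the genes. Neither mark was present on 35.2% of the Fli1 interval and 70.5% of the Ets1 interval.

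**Figure D2:**
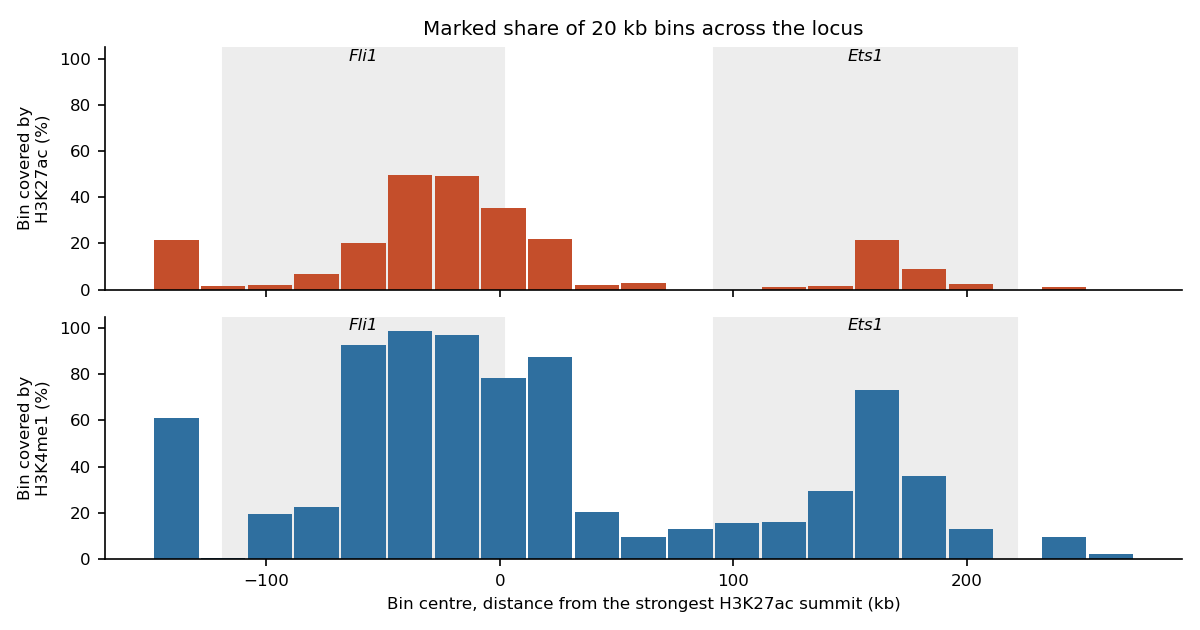
Percent of each 20 kb bin of the locus covered by H3K27ac (top) and by H3K4me1 (bottom), against the distance of the bin centre from the strongest H3K27ac summit. Grey bands are the approximate gene limits. In 5 neighbouring bins around the upper part of Fli1, H3K4me1 covered 78.6 to 98.6% and H3K27ac 20.3 to 49.6%.

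The field at Fli1 ran across the upper part of the gene and past its limit. In bins of 20 kb, H3K4me1 covered more than 75% of each bin from 32.28 to 32.38 Mb, 5 of the 21 bins of the window. H3K27ac covered 49.6% and 48.9% of the bins starting at 32.3 and 32.32 Mb, and 35.4% of the bin starting at 32.34 Mb. The lower part of Fli1 was sparse, with 1.98% and 6.63% acetylated in the bins starting at 32.24 and 32.26 Mb. Ets1 had 1 bin of comparable H3K4me1 coverage, starting at 32.5 Mb, with 73.4% of its length in H3K4me1 and 21.5% in H3K27ac.

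Joining H3K27ac regions over gaps of up to 12500 bp turned this field into a single domain. It ran from 32260883 to 32372523 on chromosome 9, spanned 111.6 kb and contained 58 regions with 36.5 kb acetylated, and H3K4me1 covered 80.7% of it. By acetylated length it ranked at 44 of 30221 domains genome-wide and was the second on chromosome 9, after a domain from 63489745 to 63607942 with 59 regions and 39.3 kb acetylated. The first domain of the genome, on chromosome 6 from 133983590 to 134218398, had 119.9 kb acetylated. Ranked by fold times width the Fli1 domain fell to rank 142.

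Acetylation at Ets1 formed a small domain of its own. It ran from 32498196 to 32528613, spanned 30.4 kb and held 7 regions with 6.30 kb acetylated, with H3K4me1 on 67.5% of the span, and ranked at 1733. The domain of the Kcnj1-side end, which reaches past the window, ended at 32217645 and held 10 regions with 4.92 kb acetylated, at rank 2422. The other 5 domains held 1 to 3 regions each. These were from 32233291 to 32242476 (2 regions, 0.73 kb acetylated) and from 32394961 to 32412618 (3 regions, 0.939 kb), and 3 single regions starting at 32464814, 32553741 and 32590488.

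Most summits of the locus were modest in height. The fold is the authors' value, the pileup at the summit divided by the background around it, and the number of reads at a summit was recovered from the fold and the deposited p-value, as described with the processing. The median H3K27ac summit of the locus was 4.21-fold (quartiles 3.55 and 5.02, 14 reads), against 3.86-fold over all regions (quartiles 3.25 and 5.32, 13 reads), a ratio of 1.09. Among peaks with a −log10 q of at least 5 the direction turned, with a ratio of 0.888. Only 6 of the 81 H3K27ac regions (7.41%) reached 6-fold or more, against a genome-wide background of 18.7%, and 1 (1.23%) reached 10-fold, against 7.77%. The H3K27ac regions were spread around 4- to 6-fold instead, a class with 43 of the 81 (53.1%) in the locus and 29.8% of all regions. Here and below, intervals of reads and shares are exact 95% intervals for counting error alone. Reads carried no molecular identifiers, so they are not independent molecules, and neighbouring regions share a library.

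For H3K4me1 the share of strong summits was instead above the genome-wide value. The median was 4.63-fold (quartiles 3.56 and 6.46) in the locus, against 4.12-fold over all regions (quartiles 3.16 and 5.69), a ratio of 1.13. Of the 66 regions, 20 (30.3%) reached 6-fold or more, against 20.7% genome-wide. No counting interval was set on this share, so whether it differs from the genome-wide value is not resolved. The quartile ranges of the locus and of all regions overlapped for both marks. H3K4me1 regions were also wide, with a median of 1318.5 bp against 687 bp over all regions, and 3 of the 66 spanned 10 kb or more, a width reached by 0.295% of regions genome-wide.

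**Figure D3:**
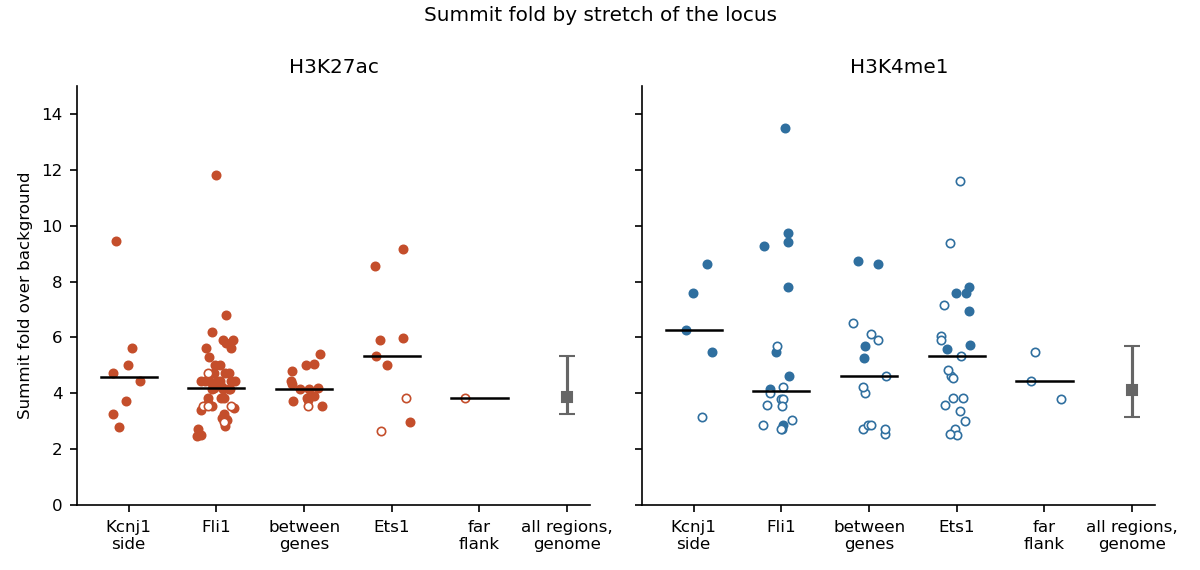
Summit fold over local background of each H3K27ac region (left) and each H3K4me1 region (right), by stretch of the locus, with the median of the stretch as a line. Filled points share at least 1 bp with the other mark and open points do not, and the grey square with bars is the median and quartiles of all regions genome-wide. The H3K27ac median was 4.19-fold at Fli1 and 5.34-fold at Ets1, and 2 of the 3 strongest H3K4me1 regions at Ets1 are open.

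The median acetylated summit was lower at Fli1, which had many regions, than at Ets1, which had few. It was 4.19-fold over 48 regions at Fli1 (quartiles 3.55 and 4.73) and 5.34-fold over 9 regions at Ets1 (quartiles 3.84 and 5.99), a ratio of 0.786. The quartile ranges overlapped, and the 9 Ets1 regions ran from 2.66- to 9.16-fold. No interval was set on either median, so the difference is not resolved. Median widths were 417 bp at Fli1 and 806 bp at Ets1. The 15 regions between the genes lay within a narrow range, 3.55- to 5.39-fold, and the strongest of them, from 32367820 to 32368854, was 5.39-fold.

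The strongest acetylated region of the locus lay at the upper limit of Fli1, where its start is expected. It ran from 32347017 to 32350756, was also the widest at 3740 bp, and its summit at 32348384 was 11.8-fold with 39 reads (interval 27.7 to 53.3). Genome-wide it ranked at 4949 by fold and at 535 by width of 93413 H3K27ac regions. It was the only region of the locus at 10-fold or more. Its summit lay outside H3K4me1, in a break of 4.28 kb between an H3K4me1 region that ended at 32347018 and another that began at 32351299. The break began 1366 bp below the summit and ended 2915 bp above it, and the acetylated region filled most of it. The region counts as meeting H3K4me1 only through 2 bp at its lower edge.

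The strongest Ets1 region had a similar height and lay well inside the approximate limits of the gene. It ran from 32502944 to 32504358 with a summit at 32503279, 9.16-fold with 30 reads (interval 20.2 to 42.8). The fold of the Fli1 region was 1.29 times as high, but the counting intervals of the summit reads overlapped, and the 2 summits were 154.9 kb apart. The H3K4me1 break beside it was smaller, 1069 bp, and narrower than the acetylated region of 1415 bp, which shared 347 bp with H3K4me1. One H3K4me1 region, from 32500426 to 32503290, ended 11 bp past the acetylation summit, and the next, from 32504360 to 32505816, began just after the acetylated region ended. The summit therefore counts as inside H3K4me1 by a margin of 11 bp, and the second H3K4me1 region counts as without H3K27ac.

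**Figure D4:**
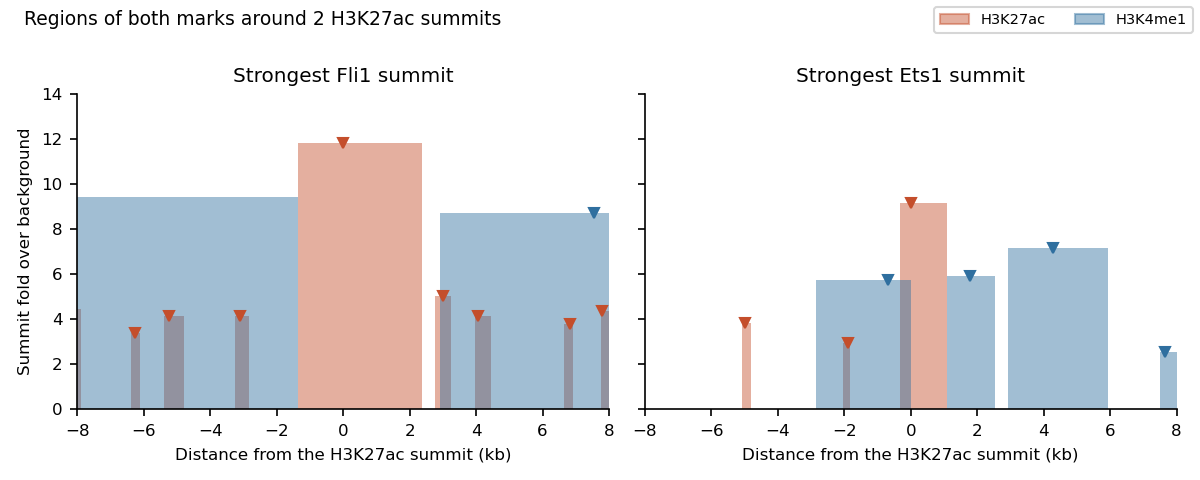
Regions of H3K27ac and H3K4me1 within 8 kb of the strongest H3K27ac summit at Fli1 (left) and at Ets1 (right), drawn to scale in kb, with bar height the fold at the region's summit and triangles the summits. At Fli1 the 3740 bp acetylated region fills a 4.28 kb break in H3K4me1, and at Ets1 the acetylated region of 1415 bp overlaps the H3K4me1 region on its left by 347 bp and spans the break of 1069 bp.

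The other strong acetylated regions of the locus were spread over Ets1, Fli1 and the Kcnj1 side. The second strongest lay beyond the lower limit of Fli1, toward Kcnj1, a gene for a potassium channel, from 32216645 to 32217645 (9.46-fold, 31 reads, interval 21.1 to 44.0). It stood 131.4 kb from the strongest summit, and the stretch of 15.6 kb above it carried neither mark. The fourth was at Ets1 from 32516918 to 32518235 (8.57-fold, 28 reads), with its summit 95 bp from an H3K4me1 summit. A further Ets1 region, from 32513314 to 32514660, was 5.99-fold, and a solitary one from 32553741 to 32554232 was 5.91-fold. The summit reads of the 4 strongest regions had overlapping intervals, so their order is not resolved at this depth.

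Within the Fli1 field the order of most summits was not resolved at this depth. After the region at the gene's upper limit, the strongest were from 32323651 to 32325032 (6.80-fold, 22 reads, interval 13.8 to 33.3), from 32311454 to 32312609 (6.21-fold, 20 reads) and a pair from 32313935 to 32314865 and from 32315191 to 32316776 (5.91-fold, 19 reads each). The pair lay 34.0 and 32.9 kb from the strongest summit. The widest after the first were from 32306271 to 32308562 (2292 bp, 5.02-fold) and from 32337344 to 32339591 (2248 bp, 5.79-fold). A summit in the Fli1 interval held 9 to 39 reads with a median of 14. Apart from the region at the gene's upper limit, folds ran from 2.47 to 6.80, and the counting intervals of the summit reads all overlapped.

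Most acetylated regions of the locus lay within H3K4me1. A shared base with H3K4me1 was found for 72 of the 81 H3K27ac regions (88.9%, interval 80.0 to 94.8%), against a genome-wide background of 71.7%. The summit lay inside H3K4me1 in 70 (86.4%, interval 77.0 to 93.0%), against 58.2% genome-wide. By stretch, 43 of 48 regions met H3K4me1 at Fli1, 14 of 15 between the genes and 7 of 9 at Ets1. H3K4me1 covered more of the locus than of the genome, and no correction was made for the more frequent chance meetings at higher coverage. When peaks of raised local background were dropped from each list, which was decided with the values in view, 29 of 52 regions met H3K4me1 (55.8%, interval 41.3 to 69.5%), against 50.2% genome-wide under the same rule. The genome-wide value then lies inside the interval of the locus. This rule also removed H3K4me1 regions that remaining H3K27ac regions had met. Among them were those starting at 32323575, 32332735, 32351299 and 32364462, with backgrounds only 1.10 to 1.25 times the genome-wide level. The part of this loss of partners in the lower share was not tested. Stricter q limits raised the share instead, to 97.7% of 44 regions (limit 5) and 100% of 7 (limit 10).

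The 9 acetylated regions without H3K4me1 had a lower median fold than the other 72. They were 2.66- to 4.72-fold with a median of 3.55, against a median of 4.43 for the 72 with H3K4me1, and none was wider than 395 bp. The strongest ran from 32260883 to 32261210 (4.72-fold), in the lower part of the Fli1 interval, and ended less than 1 kb from an H3K4me1 region. Over all regions of the genome the medians were 3.50-fold without H3K4me1 and 4.37-fold with it. The single H3K27ac region of the far end, from 32590488 to 32590698 (3.84-fold), was among the 9.

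Long H3K4me1 regions carried the acetylated field. The longest, from 32300498 to 32323250 inside Fli1, spanned 22.8 kb, met 15 H3K27ac regions and was acetylated over 52.2% of its length. Its summit was 13.5-fold with 63 reads (interval 48.4 to 80.6), the highest of the locus, and it ranked at 23 by fold and at 26 by width of 155027 H3K4me1 regions. The acetylation under it was moderate, from 2.72- to 6.21-fold. The next in width ran from 32332735 to 32347018 (14.3 kb, 9.43-fold, 9 H3K27ac regions) and from 32351299 to 32364058 (12.8 kb, 8.73-fold, 5 H3K27ac regions), on either side of the break at the strongest acetylated summit. The strongest acetylated region is itself 1 of the 9, by a shared edge of 2 bp.

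The other H3K4me1 regions among the strongest of the locus fell into groups with and without acetylation. At Fli1, those from 32323575 to 32332494 (9.74-fold), from 32282441 to 32289941 (9.27-fold) and from 32290903 to 32298555 (7.79-fold) met 5 H3K27ac regions each. Above Fli1, the region from 32364462 to 32373664 (8.62-fold) met 7, and at the Kcnj1 side the region from 32206809 to 32214091 (8.64-fold) met 6. At Ets1, the region from 32516081 to 32520481 (7.79-fold) met 1. Acetylation covered between 13.6% and 52.2% of the H3K4me1 regions of the locus that were wider than 5 kb, all of which lay at or beside Fli1 or on its Kcnj1 side.

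The strongest H3K4me1 regions without acetylation were found at Ets1, and such regions between the genes reached 6.53-fold. The region from 32480269 to 32482387 was 11.6-fold with 54 reads (interval 40.6 to 70.5), the second strongest H3K4me1 region of the locus, and met no H3K27ac region. Among the 102942 H3K4me1 regions of the genome without H3K27ac it ranked at 14 by fold. The region from 32474571 to 32476376 (9.39-fold, 48 reads) also lacked H3K27ac and ranked at 304. Both lay in a stretch of 33.2 kb between H3K27ac regions, from 32465006 to 32498195, which held 7 H3K4me1 regions over 9.09 kb with a median of 5.32-fold. H3K27ac summits with fewer than 8 reads were not called anywhere in the genome, so weaker acetylation in this stretch was not detectable at this depth.

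H3K4me1 regions without H3K27ac were in the majority over the whole locus. Of the 66 H3K4me1 regions, 23 (34.8%, interval 23.5 to 47.6%) met H3K27ac, against 33.6% genome-wide, a share within the counting interval of the locus. The count was 9 of 20 at Fli1, 4 of 15 between the genes and 6 of 23 at Ets1. At Fli1 the 11 regions without H3K27ac had medians of 617 bp and 3.58-fold and a highest summit of 5.69-fold. At Ets1 the 17 regions without it had medians of 1309 bp and 4.55-fold and reached 11.6-fold. All such regions of the genome had medians of 493 bp and 3.58-fold. The widest H3K4me1 region without H3K27ac, from 32506218 to 32509218 (3001 bp, 7.16-fold), lay above the strongest acetylated region of Ets1.

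Summits of the marks lay closer together at Ets1 than at Fli1. The median distance from an H3K27ac summit to the nearest H3K4me1 summit was 2373 bp over the 48 Fli1 regions and 370 bp over the 9 Ets1 regions. It was 500 bp or less for 5 of 48 at Fli1 and for 5 of 9 at Ets1. The file gives 1 summit for each region however wide, and the widest H3K4me1 region, at Fli1, met 15 acetylated regions. The part of this in the difference was not tested.

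Between the genes the marks thinned out and acetylation ended before H3K4me1 did. The longest stretch of the window without H3K27ac ran from 32412619 to 32464813, over 52.2 kb, and included the lower limit of Ets1 at 32.44 Mb, where the same orientation of the genes places the outermost Ets1 start. No H3K27ac region was thus called at that limit, unlike at the upper limit of Fli1. The H3K4me1 region there, from 32443193 to 32444587, was 4.63-fold. Transcription starts were not placed, so this does not cover any Ets1 start further inside the gene, where its strongest acetylated region lay. The whole stretch without H3K27ac held 5 H3K4me1 regions over 5.72 kb, from 3.37- to 5.90-fold. A single weak H3K27ac region followed, from 32464814 to 32465005 (2.66-fold, 8 reads), at the lowest number of reads called in the library. The longest stretch with neither mark was 36.3 kb, from 32554233 to 32590487, at the upper limit of Ets1.

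The local background used by the peak caller was raised at part of the locus. A background more than 1.05 times the genome-wide level was found at 29 of 81 H3K27ac summits (35.8%, interval 25.4 to 47.2%), against 26.2% genome-wide. For H3K4me1 it was found at 25 of 66 summits (37.9%, interval 26.2 to 50.7%), against 36.8%. Both genome-wide values lie inside the counting intervals of the locus. The highest ratio was 1.98 for H3K27ac, between the genes, and 2.06 for H3K4me1, at Ets1. Of the 4 strongest H3K27ac regions none had a raised background, and among the 2 strongest H3K4me1 regions none had one. The H3K4me1 regions ranked 3, 4, 5, 7 and 9 by fold in the locus did have a raised background. Their ratios to the genome-wide level were 1.10, 1.18, 1.13, 1.14 and 1.25. Those ranked 6 and 8 did not have one.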

How the data were processed

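Peak lists from chromatin immunoprecipitation sequencing were used, 1 library for H3K27ac and 1 for H3K4me1, grouped by sample title. The submitters' processing notes name Bowtie2 2.0.6, MACS2 2.0.10.20131216 and mm9. Options and control of the peak caller and duplicate handling are not given in the sources used here. Deposited columns used were position, fold (a ratio of summit pileup over local background), −log10 p, −log10 q and summit offset. The authors' score column was not used.

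Summit reads were solved from the deposited fold and −log10 p, taking fold as (reads + 1)/(background + 1) and p as the Poisson probability of more reads. A whole number matched within 0.001 at all summits of both libraries. On simulated data made with the same formulas, 99.997% of H3K27ac and 99.999% of H3K4me1 reads were returned, which checks the arithmetic only. Background was 2.38 reads genome-wide in H3K27ac and 3.75 in H3K4me1, and the weakest summits held 8 and 10 reads. The total depth is unknown.

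Regions met when they shared 1 bp or more. Shares have exact Clopper-Pearson and reads exact Poisson 95% intervals. Named regions were, within the locus, the 10 of highest fold and the 3 widest of each mark, all domains, the strongest H3K27ac region of each stretch and all of 10-fold or more, the strongest without the other mark, the widest H3K4me1 region without H3K27ac and the longest gap. The remaining named regions, neighbours of these, were picked with their values in view. The locus, its limits and the rules were chosen with earlier results of these data known. Alternatives changed the q limit, the overlap rule, the joining, the stretch limits and the ranking. Coordinates count from 1. Neighbouring genes were taken by name from a RefSeq table of another build (GRCm38.p6), and mm9 chromosome lengths from GenomeInfoDb 1.38.1. Software versions were R 4.3.3, Python 3.11.15, scipy 1.17.1, numpy 2.4.6, matplotlib 3.10.9 and pandas 2.3.3.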

Additional observations from a re-analysis of the deposited data

How the results depend on the processing

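Of 47 alternative values for 15 results, 32 stayed within the counting interval (shares and ratios) or a factor of 1.5 (counts and ranks), 14 left it and 1 changed direction. The 81 H3K27ac regions became 44 at a −log10 q of at least 5, 7 at 10, 44 when joined over 1 kb and 52 without raised local background, and the 66 H3K4me1 regions became 31 at 10, 31 when joined and 41 without raised background. The share of H3K27ac regions with H3K4me1 (88.9%) was 97.7% at a −log10 q of at least 5, 100% at 10 and 55.8% without raised background. The share of H3K4me1 regions with H3K27ac (34.8%) was 22.6% at 10 and 48.9% with equal numbers of regions genome-wide. The share of H3K27ac summits inside H3K4me1 (86.4%) was 95.5% at 5. The ratio of median H3K27ac fold, locus over all regions, changed direction to 0.888 at 5, against 1.09. The Fli1 domain ranked at 142 by fold times width, against 44. Fewer peaks remain under each q limit, under joining and without raised background, and leaving out peaks of raised background also removes partners. For the remaining moves the cause was not tested. The settings on raised background and the ratio of summit reads were chosen after the data were seen. Counts of Fli1, Ets1 and intergenic regions moved by at most a factor of 1.5 under either other way of drawing the limits. No paired analysis was possible because there is only 1 library for either mark. Regions with H3K4me1 alone are limited by depth, as H3K27ac summits under 8 reads were not called.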
